A study of Homo sapiens with 8 samples.

Results

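The genes described are 5 members of the BCL2 family: the survival genes BCL2 and BCL2A1 and the death-promoting genes PMAIP1 (also called NOXA), BID and BIK. They were taken as the probe sets whose only gene symbol was 1 of these 5 names. All 5 were found among the 14884 genes that could be named, each read by 1 probe set, and another 18 measured genes of the wider BCL2 family serve as their setting. The arrays came from PC-3 prostate cancer cells transduced with a lentiviral p-Lenti vector and kept under blasticidin selection. The RWDD4 group comprised 4 clones whose vector carried RWDD4 (clones 17, 24, 5 and 6), and the control group 4 clones with the empty vector (clones 2, 3, 4 and 5), so all clones share the vector backbone and the drug selection. Each array read RNA of 1 clone, which limits a group to what 4 isolates of a single line can show. The design asks how expression differs when RWDD4, which encodes a small RWD domain protein, is overexpressed.

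Proteins of the BCL2 family decide whether the outer mitochondrial membrane is breached, the step that releases cytochrome c and starts the caspases. BCL2 and BCL2A1 (BFL-1) belong to the survival proteins, which hold the pore-forming effectors BAX and BAK1 in check. BH3-only proteins such as PMAIP1, BID and BIK push the other way, by occupying the survival proteins or by activating the effectors. PC-3 cells have no functional p53, one of the known inducers of PMAIP1.

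RWDD4 itself was higher in the RWDD4 clones, at 10.30 ± 0.29 against 7.36 ± 0.58 in the control clones (log2 value, SD, n = 4 each), and the groups did not overlap. Values correlated between arrays at r = 0.991 to 0.993 within the RWDD4 clones, 0.980 to 0.992 within the control clones and 0.913 to 0.974 between the groups. The leading axis of variation within groups held 38.9% of that variation. Control clone 2 stood farthest out on it, at 0.48, against 0.10 to 0.20 for the other control clones and -0.29 to -0.16 for the RWDD4 clones. A gene is said to have risen or fallen in the RWDD4 clones where limma, fitted over all genes, gave a Benjamini-Hochberg adjusted p under 0.05. By that rule 46.7% of all genes passed, 25.1% upward and 21.6% downward, and the groups did not overlap in 44.8%. These counts, 3741 up and 3214 down, became 3307 up and 5765 down after centring each array on its median and 3980 up and 2200 down after cyclic loess. Of the epithelial markers KRT8, KRT18, KRT19 and EPCAM, the means lay between 6.502 and 10.61 for the RWDD4 clones, against 6.40 and 11.01 for the control clones. The 3 keratins fell by 0.28 to 0.54, KRT8 not past the test without RWDD4 clone 24 or 6 or control clone 2 or 4 (adjusted p from limma 0.0507 to 0.0838), and EPCAM lay at 0.13. KRT19 lay at 0.05 with the axis as covariate (adjusted p from limma 0.945).

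The promoters of 2 of the genes that rose are shown because they differ in kind, that of BCL2A1 being poor and that of PMAIP1 rich in G and C. Both are the 250 bases before the transcription start in RefSeq (GRCh38.p14), written 5′ to 3′. The BCL2A1 stretch lies at chr15:79971197-79971446 on the minus strand, with a TATAAA match in capitals. The PMAIP1 stretch lies at chr18:59899746-59899995 on the plus strand, with a TGACG match on the opposite strand, the core of the cyclic AMP response element, in capitals.
BCL2A1: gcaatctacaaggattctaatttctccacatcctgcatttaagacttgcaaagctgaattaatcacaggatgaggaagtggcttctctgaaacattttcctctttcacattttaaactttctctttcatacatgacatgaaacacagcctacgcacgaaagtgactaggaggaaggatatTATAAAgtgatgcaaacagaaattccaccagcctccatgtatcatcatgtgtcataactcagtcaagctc
PMAIP1: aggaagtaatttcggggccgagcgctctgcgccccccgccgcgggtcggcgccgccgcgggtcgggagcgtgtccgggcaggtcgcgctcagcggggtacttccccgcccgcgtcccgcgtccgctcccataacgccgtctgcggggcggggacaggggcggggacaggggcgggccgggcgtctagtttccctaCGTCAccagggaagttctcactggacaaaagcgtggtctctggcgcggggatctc

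Base composition was taken over 300 bases, from 250 before the start to 50 after it. Of the members, 4 matched this promoter table, BID with 5 alternative starts. The BCL2A1 window held 41.0% G and C and 2 CpG dinucleotides. The PMAIP1 window held 71.3% and 42, and the BCL2 window 70.7% and 31. The median over 27305 genes, 1 window each, was 58.3% and 14. The BCL2A1 promoter thus lay below that median and the PMAIP1 and BCL2 promoters above it. The 5 BID windows ranged from 48.7% to 78.0%.

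Among 7 motifs searched on both strands, TATAAA was found in the BCL2A1 window (11.95% of all windows hold it). TGACG was found in the windows of PMAIP1 and BCL2 (25.01% of all). GGGCGG, the core of Sp1 sites, was found in the PMAIP1 window and in 4 of the 5 BID windows (44.6% of all). No match in any member's window was found for CCAAT (35.7% of all), TGANTCA (7.76%), TTTCCCGC or TTTGGCGC (2.31%), or the NF-kappa-B consensus (10.8%). GGGCGG matched 4 times in the PMAIP1 window.

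The survival genes BCL2A1 and BCL2 were both higher in all 4 RWDD4 clones than in the highest control clone. BCL2A1, a short-lived survival protein best known as an NF-kappa-B target in blood cells, rose 3.25-fold, and BCL2, the founding member of the family, rose 1.90-fold. PMAIP1, a BH3-only protein that binds MCL1 and BCL2A1, rose 1.78-fold. The BH3-only genes BID and BIK fell, and were 1.73-fold and 1.63-fold lower. All 5 therefore passed, in directions that an earlier look at these data had already shown, against 46.7% of all genes, and the groups overlapped in none of the 5. The RWDD4 clones lay above in 3 of them, as in 23.7% of all genes, and below in 2, as in 21.1%. Each array averages the cells of a clone, so a change in the share of expressing cells and a change in the level per cell cannot be told apart.

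**Figure D1:**
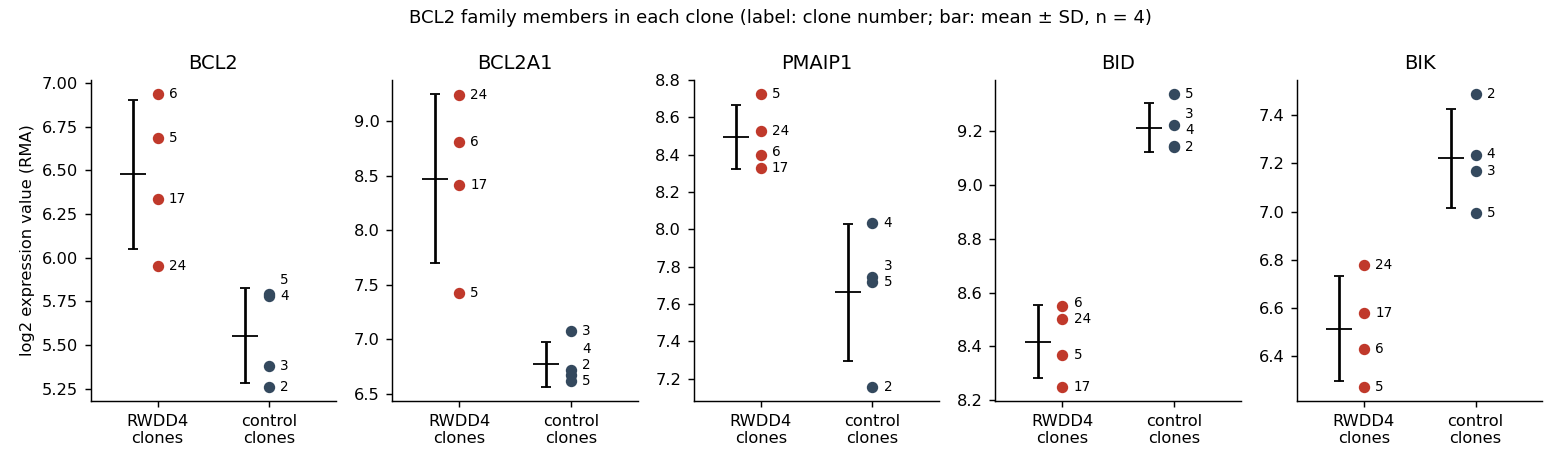
Log2 expression values (RMA) of the 5 genes in each clone, RWDD4 clones in red and control clones in grey, labelled by clone number, with bars at the mean ± SD (n = 4) and a separate vertical scale for each gene. No gene has overlapping groups, and BCL2A1 is spread from 7.43 to 9.24 within the RWDD4 clones.

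BCL2A1 had log2 values of 8.41, 9.24, 7.43 and 8.80 in RWDD4 clones 17, 24, 5 and 6, against 6.67, 7.08, 6.72 and 6.62 in control clones 2, 3, 4 and 5. RWDD4 clone 5 was the low one of its group and lay 0.35 above the highest control clone. The means were 8.47 ± 0.77 and 6.77 ± 0.21 (SD, n = 4 each), with a difference of 1.70 (SE 0.31, 95% interval 1.01 to 2.38, adjusted p from limma 0.00140). In size this difference ranked 297 among the 14884 genes. Those of BCL2, PMAIP1, BID and BIK ranked 1750, 2075, 2195 and 2590. Without RWDD4 clone 5 the BCL2A1 difference was 2.05, and without RWDD4 clone 24, the highest, 1.44.

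BCL2 lay at 6.33, 5.95, 6.69 and 6.93 in RWDD4 clones 17, 24, 5 and 6, against 5.26, 5.38, 5.78 and 5.79 in control clones 2, 3, 4 and 5. Clone 24, highest of the RWDD4 clones in BCL2A1, was the lowest in BCL2, where it lay 0.16 above the nearest control clones. The means were 6.48 ± 0.43 and 5.55 ± 0.27 (SD, n = 4 each), a difference of 0.92 (SE 0.20, 95% interval 0.47 to 1.38, adjusted p from limma 0.00422). BCL2 is a long gene, with a genomic span of 196745 bases that exceeds that of 92.4% of the protein-coding genes measured. With each array's trend over genomic span removed, its difference was 0.65 (adjusted p from limma 0.0143), the largest loss to that correction among the 5 genes.

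PMAIP1 had values of 8.33, 8.53, 8.72 and 8.40 in RWDD4 clones 17, 24, 5 and 6, and of 7.16, 7.74, 8.03 and 7.72 in control clones 2, 3, 4 and 5. The RWDD4 clones lay close together, while control clone 2 was far below the other control clones. The means were 8.49 ± 0.17 and 7.66 ± 0.37 (SD, n = 4 each), a difference of 0.83 (SE 0.17, 95% interval 0.46 to 1.20, adjusted p from limma 0.00268). Without control clone 2 the difference was 0.66 (adjusted p from limma 0.00169). PMAIP1 is a short gene, of 4310 bases, and with the span trend removed its difference was 1.02.

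BID links death receptors to mitochondria once caspase-8 has cut it. It had values of 8.25, 8.501, 8.37 and 8.55 in RWDD4 clones 17, 24, 5 and 6, against 9.14, 9.22, 9.15 and 9.34 in control clones 2, 3, 4 and 5. Both groups were tight, and a gap of 0.59 separated them, wider than for the other 4 genes. The means were 8.42 ± 0.14 and 9.21 ± 0.09 (SD, n = 4 each), a difference of -0.79 (SE 0.10, 95% interval -1.01 to -0.58, adjusted p from limma 0.000150). The difference lay between -0.84 and -0.74 with any 1 clone left out.

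BIK, a BH3-only protein that acts largely at the endoplasmic reticulum, lay at 6.58, 6.78, 6.27 and 6.43 in RWDD4 clones 17, 24, 5 and 6, and at 7.49, 7.17, 7.23 and 6.99 in control clones 2, 3, 4 and 5. The groups were 0.21 apart at their nearest clones, RWDD4 clone 24 and control clone 5. The means were 6.51 ± 0.22 and 7.22 ± 0.20 (SD, n = 4 each), a difference of -0.71 (SE 0.13, 95% interval -1.005 to -0.41, adjusted p from limma 0.00180). Without control clone 2, the highest, it was -0.62. An exact permutation test over all 70 ways to split the clones into groups of 4 gave each of the 5 genes a two-sided p of 0.0286, the lower limit of a design of this size.

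Within the groups BCL2 and BIK varied in the directions of their group differences. PMAIP1 did so largely through control clone 2, and BCL2A1 and BID did not follow them. Deviations from the group means, over the 8 arrays, correlated at -0.79 between BCL2 and BIK, -0.54 between PMAIP1 and BIK and -0.44 between BCL2 and BCL2A1. BIK fell while BCL2, PMAIP1 and BCL2A1 rose, so the values with BIK go with these directions and that of BCL2 with BCL2A1 does not. The highest positive values were 0.58 for BCL2A1 with BIK and 0.42 for BCL2A1 with BID, pairs of a gene that rose and a gene that fell. BID and BIK, which both fell, correlated at -0.25, and BCL2 and PMAIP1, which both rose, at 0.39. Control clone 2 deviated by -0.51 in PMAIP1, the largest in size of its 8 deviations, by 0.27 in BIK and by -0.29 in BCL2. The correlations without that clone were not computed. All these values are descriptions over 8 arrays that share 2 group means.

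The members also differed in how they followed the within-group axis. For this, the array's place on it was also taken as a deviation from its group mean. The members' deviations correlated with it at 0.83 for BIK, -0.71 for PMAIP1, -0.61 for BCL2, -0.46 for BID and 0.07 for BCL2A1. Correlations larger in size than that of BIK were found in 13.7% of all genes, and than that of BCL2A1 in 92.3%. So taken, control clone 2 lay at 0.25 and the other arrays at -0.13 to 0.06. The correlations without that clone were not computed. With the position of each array on the axis as a covariate, no member passed, and 1 gene of 14884 did; none of the listed genes described in the following paragraphs passed there. In that fit BCL2A1 lay at 1.84 (SE 0.69, adjusted p 0.309) and BID at -0.98 (SE 0.20, adjusted p 0.140), both at least as large as without the covariate. BCL2, PMAIP1 and BIK lay at 0.17 (SE 0.38), 0.13 (SE 0.29) and -0.11 (SE 0.22), with adjusted p from limma of 0.887, 0.891 and 0.877. The intervals of the last 3 were wide, -0.66 to 1.002 for BCL2, -0.51 to 0.77 for PMAIP1 and -0.59 to 0.37 for BIK. The groups do not overlap on the axis, so position on the axis and vector cannot be told apart in full by such a fit. The same limit holds for the values of listed genes from this fit given below, also where the sign changes.

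**Figure D2:**
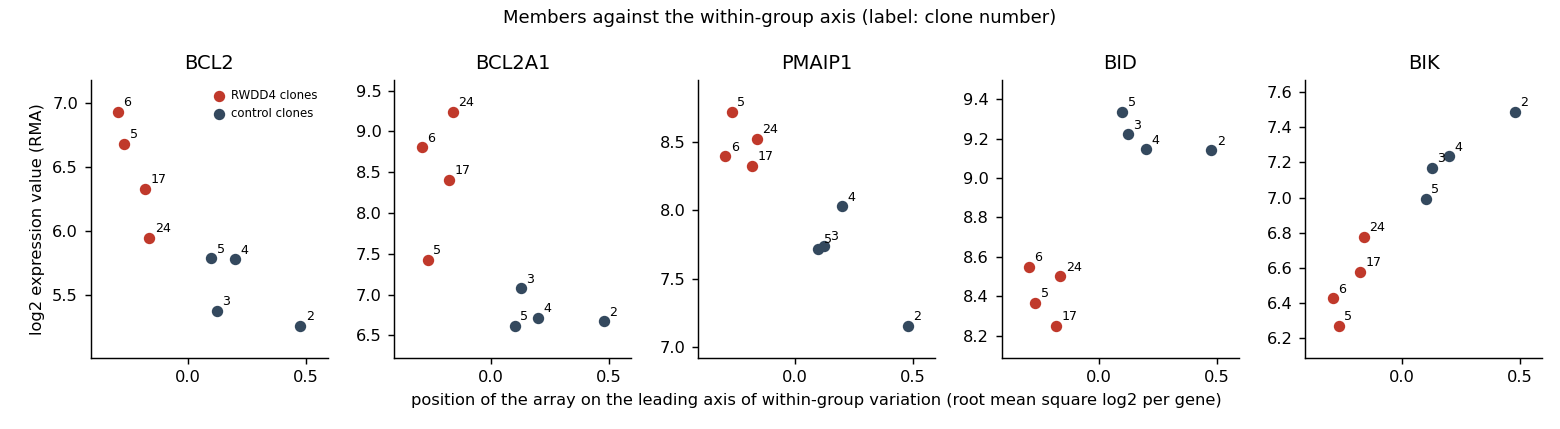
Log2 expression of the 5 genes against the place of each array along the axis that leads the variation within groups, in root mean square log2 units per gene, with RWDD4 clones in red and control clones in grey, labelled by clone number. BIK climbs along the axis within the groups as well as between them, whereas BID steps between the groups, from 8.25 to 8.55 in the RWDD4 clones against 9.14 to 9.34 in the control clones.

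Of the other survival genes in the family, MCL1 rose and BCL2L1 fell. MCL1, a short-lived survival protein that PMAIP1 helps to remove, lay at 9.82 ± 0.10 in the RWDD4 clones and 9.26 ± 0.29 in the control clones (SD, n = 4 each), a difference of 0.56 (SE 0.14). BCL2L1, which encodes BCL-XL, lay at 11.48 ± 0.04 and 11.74 ± 0.04 (SD, n = 4 each), a difference of -0.26 (SE 0.08). It did not pass without RWDD4 clone 24 (adjusted p from limma 0.0517). BCL2L10 lay at -0.14 and did not pass. Without BCL2 and BCL2A1, which were chosen with their rise known, 1 of 3 measured survival genes rose and 1 fell (median -0.14, against -0.08 over all genes), where 46.7% of all genes passed. With the axis as covariate MCL1 lay at -0.008 (adjusted p from limma 0.992).

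All 3 effector genes fell in the RWDD4 clones, where 21.6% of all genes fell. BOK, the effector that needs no activation by BH3-only proteins, lay at 8.11 ± 0.16 against 8.88 ± 0.28 in the control clones, BAK1 at 8.97 ± 0.18 against 9.47 ± 0.35 and BAX at 7.19 ± 0.08 against 7.55 ± 0.07 (SD, n = 4 each). The differences were -0.77, -0.51 and -0.36. With the span trend removed BAX and BAK1 no longer passed (adjusted p from limma 0.0946 and 0.0860), and BAK1 also did not pass without RWDD4 clone 17 (0.0573) or RWDD4 clone 6 (0.0824). With the axis as covariate BAK1 turned to 0.37 (adjusted p from limma 0.498).

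PMAIP1 was the exception among the BH3-only genes. Of 7 measured, 5 fell and 1 rose (median -0.42). Without the 3 chosen genes, 3 of 4 fell and 0 rose (median -0.41), where 21.6% of all genes fell and 25.1% rose. Beside BID and BIK, BAD, which growth factor signalling keeps inactive, fell by 0.61 (SE 0.12), the p53 target BBC3 (PUMA) by 0.42 (SE 0.13) and BMF, released from the cytoskeleton on loss of attachment, by 0.39 (SE 0.11). BCL2L11 (BIM) lay at 0.24 (SE 0.12) and did not pass. BBC3 did not pass without RWDD4 clone 6 (adjusted p from limma 0.0574), without control clone 4 (0.0558) or with the span trend removed (0.0593), and BMF did not pass after cyclic loess (0.0735). With the axis as covariate BBC3 turned to 0.15 (adjusted p from limma 0.808).

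More distant relatives split. BNIP2, BNIP3L and BNIP1 rose by 1.07, 0.96 and 0.51, of which BNIP3L is a receptor for the removal of mitochondria by autophagy. BNIP2 was read by 2 probe sets that went opposite ways. Their mean gave 0.36 (adjusted p from limma 0.0359) against 1.07 for the brighter, which places the other below 0. BNIP1 turned to -0.20 with the axis as covariate (adjusted p from limma 0.707). BCL2L12 fell by 0.50, and BNIP3, BCL2L13, BCL2L14 and BCL2L15 did not pass, at -0.13, 0.35, -0.18 and 0.02. In all, 17 of the 23 measured genes of the wider family passed, 7 up and 10 down. This is 73.9%, a count that holds the 5 chosen genes. Of the 18 others 4 rose and 8 fell, with a median of -0.16, where 25.1% of all genes rose and 21.6% fell.

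**Figure D3:**
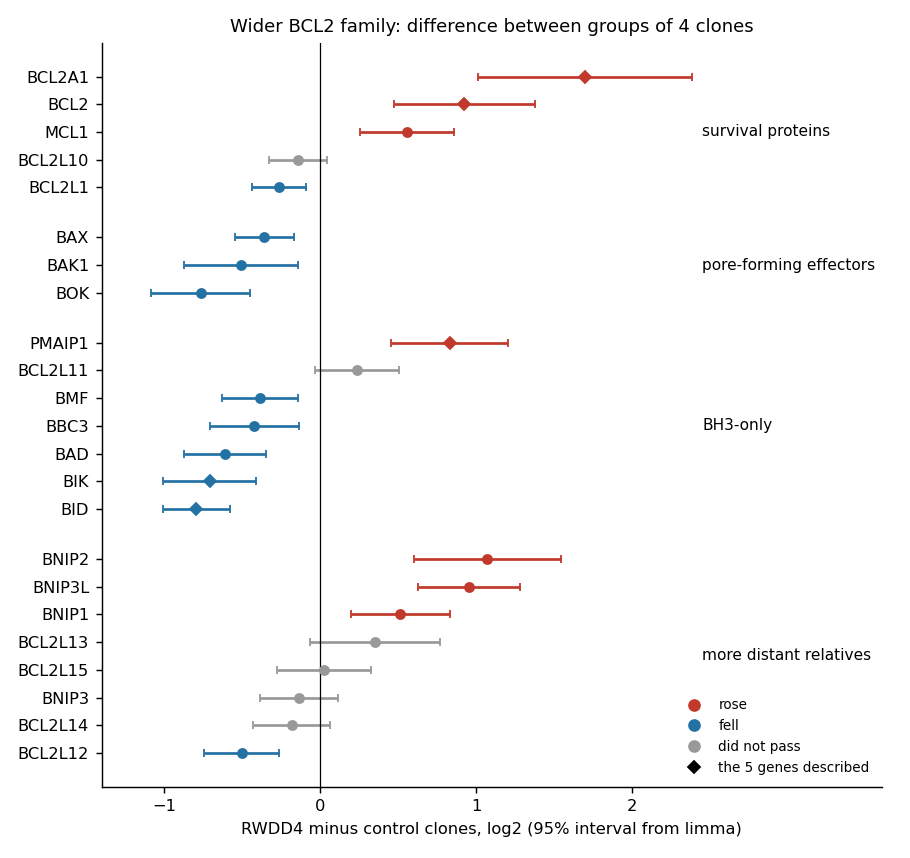
Difference between RWDD4 and control clones on the log2 scale for the 23 measured genes of the wider BCL2 family, with 95% intervals from limma, grouped by role, red for genes that rose, blue for genes that fell and grey for those that did not pass. BCL2A1 has the highest difference, 1.70, the 3 effectors all lie below 0, and PMAIP1 is the 1 BH3-only gene that rose.

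Downstream of the mitochondria, APAF1, the scaffold that cytochrome c assembles into the apoptosome, rose by 1.30 (SE 0.12), and the mitochondrial nuclease ENDOG fell by 0.76 (SE 0.17) but lay at 0.08 with the axis as covariate (adjusted p from limma 0.929). They were the 2 of 11 listed genes of that step that could be named on the array. Of 7 inhibitors of apoptosis and their antagonists 3 rose and 1 fell, which is 57.1% of them, against 46.7% of all genes. BIRC2 (cIAP1) rose by 1.595, BIRC6 by 1.498 and XIAP, the caspase inhibitor, by 0.68, while BIRC5, HTRA2 and BIRC7 lay at 0.35, -0.25 and -0.21 and did not pass. XAF1, an antagonist of XIAP, fell by 0.37, and did not pass after cyclic loess (adjusted p from limma 0.107) or without any 1 of RWDD4 clones 17, 24 and 5 and control clones 4 and 5 (0.0548 to 0.0733). Quantile normalization and median centring each gave 3 genes down in this list.

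Upstream of BID, the death receptor adaptors TRADD and FADD fell by 0.95 (SE 0.20) and 0.48 (SE 0.15), and CFLAR, the inhibitor of caspase-8, lay at 0.07 and did not pass. FADD did not pass without RWDD4 clone 5 or 6 or control clone 2 or 3 (adjusted p from limma 0.0540 to 0.0764), over all probe sets (0.0512) or with the span trend removed, where it lay at -0.28 (0.120). With the axis as covariate FADD turned to 0.23 (adjusted p from limma 0.733). The 3 were those of 14 listed genes that could be named here. Of 8 genes of the outer mitochondrial membrane 50% passed, 3 up and 1 down, close to the 46.7% of all genes. VDAC3, TOMM70 and VDAC1 rose by 1.04, 0.80 and 0.50. VDAC1 lay at 0.23 with the span trend removed (adjusted p from limma 0.0937), and TOMM70 at -0.04 with the axis as covariate (0.963). TOMM40 fell by 0.29 on the brighter of its 2 probe sets. It lay at 0.02 with their mean, which places the other probe set above 0. TOMM40 also did not pass without RWDD4 clone 5 or 6 (adjusted p from limma 0.0714 and 0.0621).

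Among genes that control the turnover of the family's proteins, BTRC and MARCHF5, which encode parts of ubiquitin ligases, rose by 0.97 and 0.48. The co-chaperone BAG3 rose by 0.31 but did not pass in 10 of 19 alternatives. It lay at 0.16 after quantile normalization (adjusted p from limma 0.266) and at 0.19 after median centring (0.164). It also did not pass without any 1 of RWDD4 clones 17, 24 and 5 and control clones 2 and 3 (adjusted p from limma 0.0602 to 0.0936). BAG1 lay at 0.08. MARCHF5 lay at 0.27 with the span trend removed (adjusted p from limma 0.0552) and at -0.07 with the axis as covariate (0.906).

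BCL2A1 is a textbook target of NF-kappa-B, and 6 of 12 listed genes of that pathway could be named on the array. They moved both ways: 3 rose and 3 fell, where 25.1% of all genes rose and 21.6% fell. CHUK, a kinase that activates the pathway, rose by 1.18 (SE 0.17) and the subunit REL by 0.66 (SE 0.17). The subunits NFKB2, RELB and RELA fell by 0.83 (SE 0.14), 0.61 (SE 0.13) and 0.32 (SE 0.08). NFKB1 rose by 0.31, and did not pass in 13 of 19 alternatives. It lay at 0.04 with the span trend removed (adjusted p from limma 0.774) and at 0.13 after quantile normalization (0.334). It also did not pass without RWDD4 clones 17, 24, 5 or 6 or control clones 2 or 4 (adjusted p from limma 0.0597 to 0.0921). With the axis as covariate NFKB1 turned to -0.18 (0.725). RELA did not pass with the span trend removed (0.0858).

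BCL2A1 is best known from blood cells, and 3 of 9 blood cell markers could be named. CD14 fell by 0.42 and CD68 by 0.39, and LYZ lay at -0.19. CD14 and LYZ averaged 4.09 and 3.89 in RWDD4 clones, against 4.51 and 4.08 in control clones. These levels lie below 4.92, the median of all values. CD68 was far above it, at 10.21 in RWDD4 clones against 10.60 in control clones. CD68 did not pass without any 1 of RWDD4 clones 17, 5 and 6 and control clones 2, 3 and 4 (adjusted p from limma 0.0641 to 0.129). Neither CD14 nor CD68 passed with the span trend removed. The mean of the 3 lay at 5.98 to 6.13 in RWDD4 clones, against 6.26 to 6.52 in control clones. Among the RWDD4 clones it was highest in clone 24, which was also highest in BCL2A1. The part of these markers in the difference of BCL2A1 was not tested.

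Of 7 measured factors named as inducers of PMAIP1, BIK or BID, none rose and 3 fell. These are 42.9% of the list, close to the 46.7% of all genes that passed. The alternatives gave from 0 (axis as covariate) to 5 (median centring) genes down in this list. E2F1 fell by 0.74 (SE 0.16) but lay at 0.11 with the axis as covariate (adjusted p from limma 0.867). The interferon-induced factor IRF1 fell by 0.73 (SE 0.15) and ATF3 by 0.54 (SE 0.19). ATF3 did not pass after cyclic loess (adjusted p from limma 0.108) or without any 1 of RWDD4 clones 24, 5 and 6 and control clones 3 and 4 (0.0644 to 0.114). ATF4, DDIT3, MYC and TP73 lay at -0.04, -0.29, -0.24 and -0.13 and did not pass in the reported fit. MYC passed after quantile normalization (adjusted p from limma 0.00922), median centring (0.0123), cyclic loess (0.0442) and the level filter (0.0496). TP73 passed after median centring (adjusted p from limma 0.0388) and with the span trend removed (0.00727).

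The 5 genes lie on 3 chromosomes, BCL2 and PMAIP1 close together on chromosome 18, BID and BIK far apart on chromosome 22, and BCL2A1 on chromosome 15. Neighbours were taken as up to 5 measured protein-coding genes on each side, a choice made after the members' values were seen. Of the 10 neighbours of BCL2, 8 rose and 0 fell (median 0.96), PMAIP1 among them, with TMX3 at 2.20, DSEL at 2.13, RELCH at 1.64 and the phosphatase gene PHLPP1 at 1.09. Of the 10 neighbours of PMAIP1, 6 rose and 2 fell, the secreted protein gene CCBE1 at 1.29, and GRP and RAX at -0.39 and -0.64. The 2 sets share genes. Together they hold 14 genes other than the members, of which 9 rose and 2 fell, or 7 and 2 with the span trend removed. Over the whole of chromosome 18, 44.5% of 173 protein-coding genes rose and 8.09% fell, against 30.0% and 22.7% of the 11911 over all chromosomes, members left out. With the span trend removed, 68 genes of chromosome 18 rose and 32 fell, against 77 and 14 without that step, and their median difference was 0.21 against 0.34. Over all chromosomes that step gave 3276 genes up and 2962 down.

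Chromosome 22 leaned the other way, with 10.4% of 260 protein-coding genes up and 41.9% down, or 21 genes up and 108 down with the span trend removed, against 27 and 109. Of the 7 neighbours of BID 4 fell and 0 rose, with the interferon-induced USP18 at -0.71 and IL17RA at -0.50, while the adjacent family member BCL2L13 lay at 0.35 and did not pass. Of the 10 neighbours of BIK 3 fell and 1 rose, with TSPO at -0.68 and ARFGAP3 at 0.58. BCL2A1 stood apart from its surroundings: 0 of its 10 neighbours rose, 2 fell, and none lay above 0.12. Among these neighbours CTSH, ANKRD34C and ARNT2 averaged below 4.92, the median of all values, in both groups, and the others above it. On chromosome 15, 36.6% of 350 protein-coding genes rose.

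**Figure D4:**
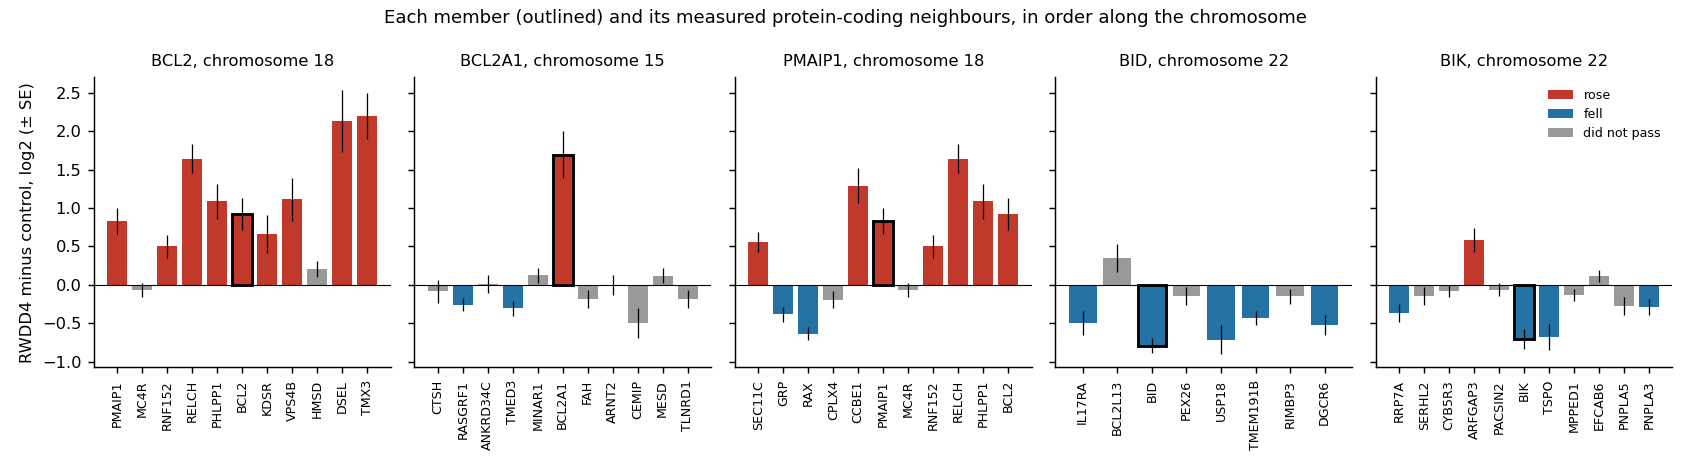
Difference between RWDD4 and control clones on the log2 scale (bars, ± SE) for each of the 5 genes, outlined, and its nearest measured protein-coding genes in order along the chromosome, red for genes that rose, blue for genes that fell and grey for those that did not pass. BCL2 sits in a run of genes that rose, whereas BCL2A1, at 1.70, sits among genes between -0.49 and 0.12.

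The genes whose log2 values ran most like those of each member over the 8 arrays were found among 11761 protein-coding genes. For BCL2 they were ETV1, STARD3NL and PCMTD1 (Pearson r 0.987, 0.982 and 0.981), for PMAIP1 THNSL1, RNF145 and the cohesin gene SMC1A (0.993, 0.991 and 0.986), and for BCL2A1 NAP1L4, JPH1 and NEXN (0.973, 0.973 and 0.972). For BID they were RNF207, MYO9B and LHX1 (0.994, 0.987 and 0.985), and for BIK MAP6D1, RHOV and FAM229A (0.994, 0.994 and 0.994). Such values are set in large part by the group difference: r was over 0.9 for 1386 genes with PMAIP1, 963 with BIK, 752 with BCL2, 406 with BID and 53 with BCL2A1. BCL2A1 thus had the fewest genes of like pattern.

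With the group means taken out, the genes most like each member were mostly others. They were KCTD9 and PLSCR4 for BCL2 (r 0.977 and 0.976), STYK1 and HSPA12A for BCL2A1 (0.959 and 0.958), PLS1 and UPRT for PMAIP1 (0.985 and 0.973), ZNF292 and LDB1 for BID (0.969 and 0.968), and CLUH and MAP6D1 for BIK (0.993 and 0.988). MAP6D1 was the gene named for BIK by both measures. STYK1 and HSPA12A, at 0.24 and 0.10, did not pass between the groups. They were picked as the highest of 11761 values of r with BCL2A1 over 8 arrays, of which 18 were over 0.9. How high the best r would be by chance in such a search was not tested.

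Of 19 alternatives to the fit, every one of the 5 genes passed in 18 and kept its direction in all 19. Without the axis covariate the differences ranged from 0.65 to 1.10 for BCL2, 1.44 to 2.05 for BCL2A1, 0.65 to 1.02 for PMAIP1, -0.96 to -0.74 for BID and -0.84 to -0.62 for BIK.

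**Figure D5:**
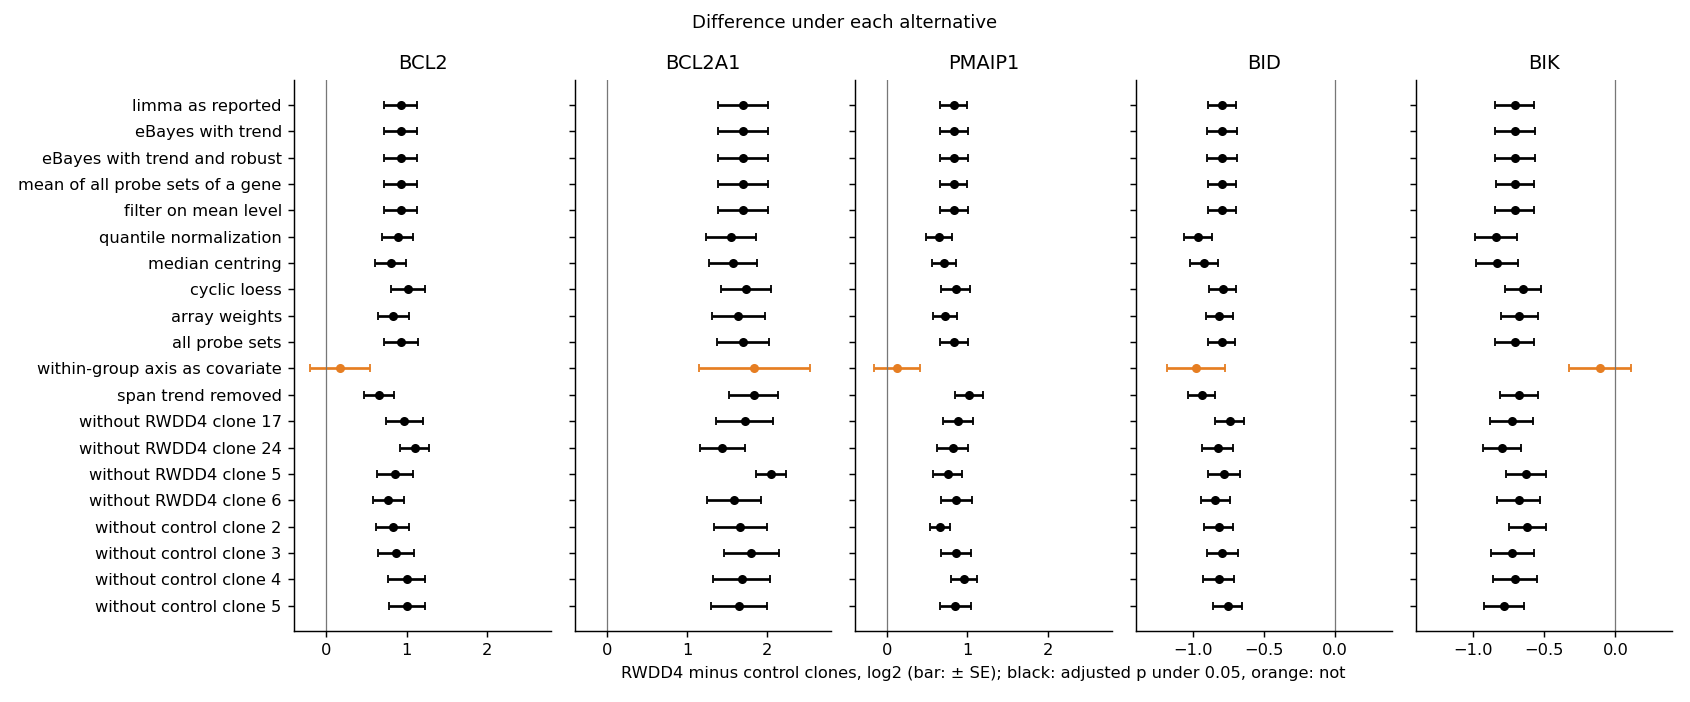
Difference between RWDD4 and control clones on the log2 scale (points, ± SE) for the 5 genes under the reported fit and 19 alternatives, black where the adjusted p was under 0.05 and orange where it was not. The fit with the within-group axis as covariate is the 1 alternative in orange, and there BCL2, PMAIP1 and BIK lie near 0 while BCL2A1 and BID do not.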

How the data were processed

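The values were deposited by the authors as log2 values, 1 per probe set and array. Partek and RMA, a method that corrects background, normalizes arrays to each other and summarises probes, are named per the submitters' processing notes, without version or settings. Such values compare 1 gene between arrays, not genes with each other, and 4 arrays per group limit how precise they are. The sources used here give neither genome build nor batches.

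Of 53617 probe sets, 16098 had exactly 1 gene symbol in the platform's annotation, for 14884 genes, all found by gene ID in a RefSeq table (GRCh38.p14). Where a gene had several probe sets, the brightest on average stood for it. No filter was applied, and no 2 arrays were identical. RWDD4 minus control clones was fitted on all genes with lmFit and eBayes of limma 3.58.1 (R 4.3.3); the design held no covariates, tests were two-sided, and p-values were adjusted over all genes by Benjamini-Hochberg. The steps were tested on simulated data.

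The members and lists were chosen with earlier results of these data known. Genes named were the members, the listed genes, neighbours, and for each member the 3 genes of highest r over all values and the 2 of highest r over deviations from group means. Sequences came from RefSeq. Alternatives covered the variance model, probe set choice, a level filter, scaling, array weights, all probe sets, the within-group axis, genomic span (lowess, span 0.3) and each clone left out. P-values measure the spread between clones.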

Additional observations from a re-analysis of the deposited data

Results flagged for a closer look

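RWDD4 clone 6 had the lowest RWDD4 value of its group, 9.87, against 10.42, 10.45 and 10.46 in clones 17, 24 and 5, a gap that exceeds Dixon's 95% limit for 4 samples (0.936 of the group's range). In groups of this size about 1 in 20 would be marked by chance, and 12 groups, of the 5 members and RWDD4, were looked at. Clone 6 was the highest of the RWDD4 clones in BCL2 (6.93) and BID (8.55) and lay inside the range of the others in BCL2A1, PMAIP1 and BIK. Without it the members' differences were 0.77 for BCL2, 1.59 for BCL2A1, 0.86 for PMAIP1, -0.84 for BID and -0.68 for BIK, and all 5 passed.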

How the results depend on the processing

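Under 18 of 19 alternatives the 5 members passed in their reported direction, and the wider family had 15 to 19 genes past the threshold and all genes 5630 to 9072. With each array's position on the within-group axis as a covariate, limma gave BCL2 0.17, BCL2A1 1.84, PMAIP1 0.13, BID -0.98 and BIK -0.11, with 0 members, 0 wider family genes and 1 of all genes past the threshold. At an unadjusted p under 0.05 these counts were 2, 3 and 1910. The cause of that loss was not tested. Median centring moved the median difference of all genes to -0.21, against -0.08 as reported, and there the differences were 0.80 for BCL2, 1.57 for BCL2A1, 0.71 for PMAIP1, -0.92 for BID and -0.83 for BIK. No paired analysis was possible because the groups share only 1 clone number, 5, which labels different isolates. No signal over background was measured, but the mean of every member lay above 4.92, the median of all values.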
